A study of Mus musculus with 2 samples.

Results

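The genes described here are 40 genes of S-phase and DNA replication, chosen by symbol, and all 40 were found among the 28001 genes of one scRNAseq library and the 32286 of the other. They held 0.427% of the UMIs (unique molecular identifiers, each standing for 1 transcript molecule caught in a cell) of the kept cells of the septal explants and 0.488% of those of the telencephalic vesicle. A cell copies its genome once per cycle. Before S-phase, the MCM helicase is loaded onto replication origins by Cdc6 and its partners, and during S-phase polymerases, the sliding clamp PCNA and its loaders, nucleotide synthesis and histone supply act together at the forks, while repair and checkpoint proteins guard them. Many of these genes are targets of the E2F transcription factors. In the embryonic telencephalon, apical progenitors (APs) cycle at the ventricle and give rise to basal progenitors (BPs) and to neurons, which leave the cycle.

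The study dissected 2 tissues of C57BL/6J mouse embryos and made 1 droplet library of each. Septal explants came from 8 E11.5 PGKCre;Rosa26YFP embryos and 4 E12.5 Dbx1Cre;Rosa26tdTomato embryos, with 2 litters for each genotype, and were pooled before a 3′ library was made with the v2 kit of 10x Genomics. Telencephalic vesicles of 3 wild-type embryos from 2 litters, labelled E12 and given as E11.5 to E12 by the study's methods, were pooled for a library made with the v3.1 kit. PGKCre acts in cells of all lineages, so that YFP marks the E11.5 pool, whereas tdTomato marks only cells of the Dbx1 lineage at E12.5, and the GEO labels call both libraries wild-type. With 1 library per tissue, and no mark for single embryos in it, no test between conditions was possible. Cells are not replicates, each library was read on its own, and levels were not compared between them.

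The deposited matrices held 5827 barcodes with 83103280 UMIs for the septal explants and 14283 barcodes with 194821794 UMIs for the telencephalic vesicle, and the libraries shared 1 barcode. After filtering, 5384 and 11758 cells were kept, with a median of 12868.5 and 9058.5 UMIs per cell. Clustering left out the members and genes correlated with the cell cycle. The classes carry the ending "-like" because they were named from marker genes. Levels are given as CPM, the UMIs of a gene or list over all UMIs of the summed cells, scaled so that 10000 CPM is 1% of the UMIs, with exact Poisson 95% intervals. Ratios of CPM carry exact 95% intervals from the binomial distribution, and these intervals cover counting error only. *Eomes* and *Tubb3* were among the markers used for naming, so their levels describe the classes and are no check of the names. *Eomes*, a marker of pallial BPs, was at 415 CPM in BPs and 3.11 in APs of the septal explants, and at 480 and 7.47 in the telencephalic vesicle. *Tubb3*, a neuronal tubulin, was at 290 CPM in APs and 5907 in neurons of the septal explants. Hem-like APs were counted with the APs. Of the 3 hem-like clusters of the telencephalic vesicle, 1 (328 of the 1137 hem-like cells) was led by *Trpm3* and *Ttr*, and *Ttr*, a gene of the choroid plexus, was at 309 CPM in it and 0.520 in the other hem-like cells. Its name is therefore in doubt, and values that rest on it are given with and without it. *Ttr* was also at 53.2 CPM in the only hem-like cluster of the septal explants, against 3.34 over all APs of that library. The name of that cluster is therefore less sure too.

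Promoter sequence was examined because E2F proteins bind short sites near the start of many replication genes. RefSeq windows on GRCm38.p6, from 250 bases before to 50 after the start, were found for 30 of the 40 genes. The E2F-type words TTTCCCGC, TTTGGCGC, TTTGCCGC and TTTCGCGC were searched on both strands, and matches can overlap. At least 1 such word lay in the windows of 12 of the 30 genes (40%), and in those of 704 of 27025 genes in all (2.60%). The CCAAT box, a common promoter element, was present for 21 of 30 members (70.0%) and for 41.1% of all genes. Both motifs were present for 8 members (26.7%) and 1.26% of all genes. *Mcm5* held 2 E2F-type matches and *Mcm6* held 3, with 1 overlapping pair in each. *Cdc6*, *Clspn*, *Hells*, *Pold3*, *Ubr7* and *Uhrf1* each held 1 match, as did the other 4 genes shown here. The 6 stretches shown are those of genes with a match before the start in both RefSeq and the GENCODE annotation, and each runs from 20 bases before the first E2F-type match to the base before the first of these starts. Capitals mark the E2F-type words and the CCAAT box (ATTGG on the other strand), 5′ to 3′ along the strand of the gene.
Mcm5, chr8:75109336-75109508, plus strand: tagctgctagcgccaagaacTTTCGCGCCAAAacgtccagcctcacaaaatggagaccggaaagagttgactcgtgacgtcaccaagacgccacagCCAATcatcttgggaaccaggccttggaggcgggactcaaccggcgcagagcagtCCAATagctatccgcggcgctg
Mcm6, chr1:128359706-128359835, minus strand: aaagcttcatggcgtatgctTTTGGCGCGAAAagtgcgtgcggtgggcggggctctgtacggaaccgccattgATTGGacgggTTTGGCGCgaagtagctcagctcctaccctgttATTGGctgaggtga
Dtl, chr1:191575545-191575572, minus strand: atcagaaagcgtgacgtcagTTTGGCGC
Cdca7, chr2:72476128-72476158, plus strand: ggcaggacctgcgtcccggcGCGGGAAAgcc
Pola1, chrX:93632156-93632313, minus strand: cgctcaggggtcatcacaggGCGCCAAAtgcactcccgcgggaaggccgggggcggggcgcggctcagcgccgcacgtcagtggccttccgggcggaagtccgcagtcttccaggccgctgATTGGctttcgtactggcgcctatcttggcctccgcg
Casp8ap2, chr4:32615274-32615450, plus strand: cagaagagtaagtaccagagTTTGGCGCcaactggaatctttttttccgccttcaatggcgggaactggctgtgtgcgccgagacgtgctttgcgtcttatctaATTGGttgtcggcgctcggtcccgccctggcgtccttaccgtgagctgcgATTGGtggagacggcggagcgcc
A match is only a run of letters and does not show that a protein binds there. The genes without a match include *Pcna* and *Rrm2*, in whose windows these E2F-type words were not found.

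Summed over the 40 genes, APs carried the highest levels of the neural classes, BPs intermediate levels and neurons the lowest, in both libraries. In the septal explants, the members summed to 5295 CPM in 3335 APs (interval 5276 to 5315), 3038 CPM in 492 BPs (2995 to 3083) and 1185 CPM in 1110 neurons (1167 to 1204). In the telencephalic vesicle, they summed to 5438 CPM in 6858 APs (5425 to 5450), 3721 CPM in 661 BPs (3675 to 3769) and 1379 CPM in 1677 neurons (1359 to 1400). The AP level was 4.47 times that of neurons in the septal explants (interval 4.40 to 4.54) and 3.94 times in the telencephalic vesicle (3.88 to 4), so that the 3 classes were separated beyond counting error. When doublets were kept, and cells were clustered and named anew, the ratio in the telencephalic vesicle fell to 2.36, with 2004 neurons. With all deposited barcodes it was 2.44, and without the GABAergic-like neurons 5.17. *Hbb-y*, an embryonic globin made by red blood cells and here a measure of free RNA, was at 344 CPM in APs and 365 in neurons of the septal explants, and at 1289 and 3425 in the telencephalic vesicle. Its part in the members' levels was not tested.

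Each of the 40 genes was at least 2-fold higher in APs than in neurons in both libraries. The same held for 16.7% of all genes tested in septal explants and 19.9% in the telencephalic vesicle. The median ratio of the members was 6.11 in septal explants and 4.52 in the telencephalic vesicle, and that of all genes tested was 0.972 and 1.07. The ratio reached 4 for 31 and 25 of the 40 members, and 8 for 11 and 4 of them. The shares of all genes at 4 and 8 were not computed, so these 2 counts do not set the members apart. Across the 40 genes, the order of the ratios was alike in the libraries (Spearman's rho 0.844, a description over genes that share cells and depth), and 9 of the 10 highest were the same genes. Among 47 other genes of the replication machinery, 37 and 38 were at least 2-fold higher in APs, with medians of 3.76 and 3.97. Among 52 genes of G2 and mitosis the number was 46 in both libraries, with medians of 5.03 and 4.25.

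**Figure D1:**
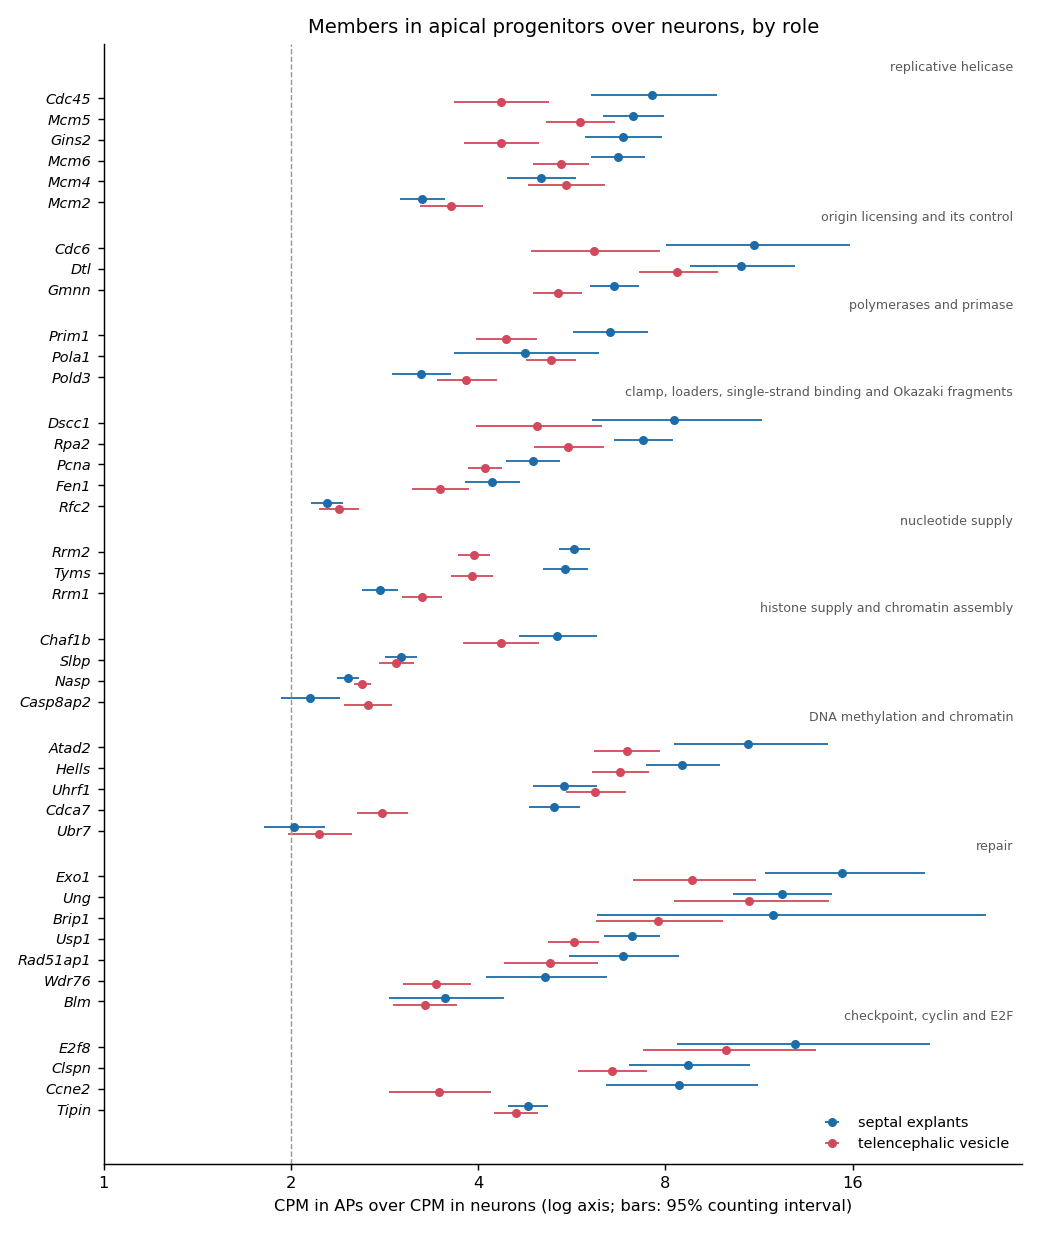
Ratio of CPM in APs to CPM in neurons (log axis) for each of the 40 genes, grouped by role, with blue points for the septal explants, red points for the telencephalic vesicle and bars for 95% counting intervals. All points lie right of the dashed line at 2, from *Ubr7* at 2.03 and 2.22 to *Exo1* at 15.4 in the septal explants and *Ung* at 10.9 in the telencephalic vesicle.

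The 6 genes of the replicative helicase summed to 764 CPM in APs and 140 CPM in neurons of the septal explants, and to 545 and 111 CPM in the telencephalic vesicle. The helicase unwinds the parental strands ahead of the fork, with a ring of MCM proteins that Cdc45 and the GINS complex switch on. Its summed ratio of APs to neurons was 5.47 (5.22 to 5.73) and 4.89 (4.64 to 5.15). *Mcm5* (ENSMUSG00000005410, mm10 chr8:75109569-75128439, plus strand) was at 170 CPM in APs, 84.4 in BPs and 23.9 in neurons of the septal explants, a ratio of APs to neurons of 7.1 (6.35 to 7.96). *Mcm5* in the telencephalic vesicle was at 109, 66.4 and 18.8 CPM, a ratio of 5.83 (5.14 to 6.63). *Mcm6* (chr1:128331590-128359664, minus strand) followed the same order, with ratios of 6.71 (6.07 to 7.42) and 5.43 (4.90 to 6.04). The ratios of *Mcm4* were 5.05 and 5.53, and those of *Mcm2* were the lowest of the role at 3.25 and 3.62. *Cdc45* set itself apart by its level in BPs: it was at 43.5 CPM in APs, 39.6 in BPs and 5.71 in neurons of the septal explants, and at 44.0, 40.6 and 10.1 CPM in the telencephalic vesicle. APs and BPs did not differ in *Cdc45* beyond counting error, with ratios of 1.10 (0.960 to 1.26) and 1.08 (0.957 to 1.23). *Gins2* lay at the other end, at 105 CPM in APs and 31.6 in BPs of the septal explants (ratio 3.32, 2.88 to 3.85) and 69.7 and 32.4 CPM in the telencephalic vesicle (2.15, 1.88 to 2.48).

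Among the genes of origin licensing and its control, *Cdc6* (chr11:98907801-98923940, plus strand), which loads the MCM ring, was at 30.5 CPM in APs and 2.74 in neurons of the septal explants, a ratio of 11.1 (8.03 to 15.8). *Cdc6* in the telencephalic vesicle was at 33.6 and 5.48 CPM, a ratio of 6.13 (4.86 to 7.85). The wide intervals follow from its low counts in neurons. *Dtl*, part of the ubiquitin ligase that removes the licensing factor Cdt1 in S-phase, was at 86.4 and 8.16 CPM in the septal explants (10.6, 8.77 to 12.9), and at 120 and 14.4 CPM in the telencephalic vesicle (8.36, 7.25 to 9.70). *Gmnn* encodes geminin, which holds Cdt1 inactive, and its ratios were 6.62 (6.04 to 7.26) and 5.37 (4.90 to 5.88). The role as a whole had ratios of 7.57 and 6.20.

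The polymerase and primase genes *Pola1*, *Prim1* and *Pold3* summed to ratios of 4.52 and 4.58. *Prim1*, the primase that starts each new fragment, was at 106 CPM in APs and 16.2 in neurons of the septal explants and at 108 and 24.3 CPM in the telencephalic vesicle, with ratios of 6.51 and 4.44. *Pola1*, which extends the primer, had ratios of 4.75 and 5.23, and *Pold3*, a subunit of the lagging strand polymerase, 3.24 and 3.83. *Pcna* (chr2:132249162-132253314, minus strand), the sliding clamp, was at 146 CPM in APs, 77.1 in BPs and 29.9 in neurons of the septal explants, and at 315, 202 and 76.8 CPM in the telencephalic vesicle. Its ratios of APs to neurons were 4.89 (4.43 to 5.42) and 4.10 (3.85 to 4.36), and no 2 of the 3 classes overlapped in their intervals. Clamp loading and single-strand binding genes spread around *Pcna*. *Rpa2*, a subunit of the single-strand binding protein, had ratios of 7.37 and 5.58, *Dscc1* of the alternative clamp loader 8.25 and 4.97, and *Fen1*, the flap endonuclease of Okazaki fragments, 4.21 and 3.47. *Rfc2*, a subunit shared by clamp loaders, was lowest, at 201 CPM in APs and 88.0 in neurons of the septal explants (2.28, 2.15 to 2.43) and at 132 and 55.3 CPM in the telencephalic vesicle (2.39, 2.22 to 2.58).

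Of the nucleotide supply genes, *Rrm2* and *Rrm1* kept much of their level in BPs. *Rrm2* (chr12:24708241-24714146, plus strand) encodes the small subunit of ribonucleotide reductase, which makes deoxyribonucleotides. *Rrm2* was at 539 CPM in APs, 473 in BPs and 94.5 in neurons of the septal explants, and at 342, 354 and 86.8 CPM in the telencephalic vesicle. It was thus 1.14 times higher in APs than in BPs of the septal explants (1.10 to 1.18), and not separated from BPs in the telencephalic vesicle (0.965, 0.926 to 1.01). Its BP level was 5.01 (4.69 to 5.36) and 4.08 (3.8 to 4.39) times that of neurons. *Rrm1*, the large subunit, was at 197, 156 and 70.8 CPM in APs, BPs and neurons of the septal explants, and at 181, 138 and 55.7 CPM in the telencephalic vesicle. Its ratios of APs to neurons, 2.78 and 3.24, were lower than the 5.71 and 3.94 of *Rrm2*. *Tyms*, thymidylate synthase, had ratios of 5.52 and 3.91.

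Histone supply and chromatin assembly genes had the lowest summed ratio of the 9 roles, 2.72 (2.64 to 2.80) and 2.73 (2.66 to 2.80). *Nasp* (chr4:116601052-116627941, minus strand), a histone chaperone, was at 500 CPM in APs, 379 in BPs and 202 in neurons of the septal explants, and at 810, 691 and 311 CPM in the telencephalic vesicle. It held 9.43% of the members' UMIs in APs and 17.1% in neurons of the septal explants, and 14.9% and 22.5% in the telencephalic vesicle, so that more of the neuronal sum came from this gene. *Slbp*, which binds the stem-loop of histone mRNAs, had ratios of 3.01 and 2.95, and *Casp8ap2*, which is needed for histone gene expression, 2.15 and 2.66. *Chaf1b*, a subunit of the chromatin assembly factor that places histones behind the fork, differed from these with ratios of 5.36 and 4.35.

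The genes of DNA methylation and chromatin summed to ratios of 5.23 and 4.84. *Uhrf1*, which brings the maintenance methyltransferase to new DNA, had ratios of 5.50 and 6.17, *Hells*, a remodeller needed for DNA methylation, 8.51 and 6.76, and *Atad2*, a chromatin ATPase, 10.9 and 6.93. *Cdca7*, which recruits *Hells*, was at 181 CPM in APs, 54.6 in BPs and 34.2 in neurons of the septal explants, and at 99, 36.3 and 35.3 CPM in the telencephalic vesicle. BPs and neurons of the telencephalic vesicle were not separated in *Cdca7* (ratio 1.03, 0.875 to 1.2). *Ubr7*, a ubiquitin ligase of chromatin, had the lowest ratios of APs to neurons in both libraries, 2.03 (1.81 to 2.27) and 2.22 (1.97 to 2.51).

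Repair genes summed to a ratio of 7.73 (7.21 to 8.29) in the septal explants, not separated from the 7.57 of origin licensing (7 to 8.21), and to 5.18 (4.91 to 5.47) in the telencephalic vesicle. *Ung* (chr5:114130386-114139323, plus strand), the glycosylase that removes uracil from DNA, was at 111 CPM in APs, 24.5 in BPs and 9.04 in neurons of the septal explants, and at 42.2, 13.7 and 3.88 CPM in the telencephalic vesicle. It had the highest ratio of APs to BPs of all 40 genes in both libraries, 4.54 (3.86 to 5.38) and 3.08 (2.49 to 3.84). *Exo1*, an exonuclease of mismatch repair and end resection, was at 54.8 CPM in APs and 3.56 in neurons of the septal explants (15.4, 11.6 to 20.9) and at 53.1 and 6.01 CPM in the telencephalic vesicle (8.84, 7.08 to 11.2). *Brip1*, a helicase that works with BRCA1, was the member with fewest UMIs in the septal explants, 7.95 CPM in APs and 0.667 in neurons, and its ratio of 11.9 had an interval from 6.21 to 26.2. Its ratio in the telencephalic vesicle was 7.77 (6.18 to 9.91). *Rad51ap1*, which assists strand exchange, had ratios of 6.84 and 5.21, *Usp1*, a deubiquitinase of PCNA, 7.06 and 5.70, *Wdr76* 5.12 and 3.42, and *Blm*, the helicase mutated in Bloom syndrome, 3.54 and 3.28.

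Of the checkpoint, cyclin and E2F genes, *E2f8*, a repressor among the E2F factors, was at 19.2 CPM in APs and 1.48 in neurons of the septal explants (12.9, 8.34 to 21.3), and at 31.2 and 3.12 CPM in the telencephalic vesicle (10.0, 7.36 to 14.0). *Clspn*, the adaptor of the replication checkpoint, had ratios of 8.70 and 6.56, and *Tipin*, which protects stalled forks, 4.81 and 4.60. *Ccne2*, a cyclin of the entry into S-phase, was at 33.1 and 3.93 CPM in APs and neurons of the septal explants (8.42, 6.41 to 11.3) and at 30.7 and 8.90 CPM in the telencephalic vesicle (3.45, 2.87 to 4.19).

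Summed over cells, BPs held the members at levels between those of APs and neurons. The median over single cells of the septal explants was 4865 CPM in APs, 1487 in BPs and 958 in neurons, so most of its BPs lay nearer to neurons. The genes differed in how far they fell from APs to BPs. In the septal explants, 22 of the 40 genes were at least 2-fold higher in APs than in BPs, against 12.7% of all genes tested. Only 6 were in the telencephalic vesicle, against 13.3% of all genes, which is close to the share of members. No septal count with BPs was made without the cluster led by *Neurog1*, *Insm2* and *Cdkn1c*. That cluster held 209 of the 492 BPs and the members at 1817 CPM. The median ratio of the members was 2.06 and 1.65, and that of all genes 1.07 and 1.10. *Ung*, *Cdca7*, *Gins2* and *Exo1* had the 4 highest ratios in both libraries, whereas *Cdc45* and *Rrm2* were near 1. Nucleotide supply had the lowest summed ratio of the 9 roles, 1.28 (1.24 to 1.32) and 1.14 (1.11 to 1.18). Among the genes of that role, *Rrm2* had the most UMIs in APs and so weighed most in this sum. Repair had 2.52 (2.38 to 2.68) and 1.69 (1.62 to 1.77), and origin licensing 2.22 (2.08 to 2.37) and 1.90 (1.80 to 2.02). From BPs to neurons, 31 of 39 members tested in the septal explants (5.47% of all genes tested) and 36 of 40 in the telencephalic vesicle (8.41%) were at least 2-fold higher in BPs. *Brip1* had too few UMIs to be tested in the septal explants. The G2 and mitosis genes kept more of their AP level in BPs, with a summed ratio of APs to BPs of 1.31 and 1.03 where the members had 1.74 and 1.46.

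The BP clusters of the septal explants spanned a wide range. Cells of the cluster led by *Neurog2*, *Neurog1* and *Tfap2c* held the members at 4937 CPM, those led by *Sstr2*, *Igsf8* and *Eomes* at 2751, and those led by *Neurog1*, *Insm2* and *Cdkn1c*, a cell cycle inhibitor, at 1817. The G2 and mitosis genes followed another order over these clusters, at 9453, 10802 and 4717 CPM. *Rrm2* was at 775, 482 and 226 CPM and *Ung* at 54.0, 14.5 and 10.9 CPM, so that *Ung* was low in the *Eomes* cluster while *Rrm2* was still high. Among the GABAergic-like neurons of the septal explants, a cluster led by *Dlx1* and *Sp9* held the members at 2727 CPM and one led by *Gad2* and *Slc32a1* at 1062. The G2 and mitosis genes were at 7357 and 2114 CPM in them, and at 8208 CPM in all BPs. The name of the *Dlx1* cluster as neurons is therefore less sure. The BP cluster at 1817 CPM lay below the *Dlx1* cluster in both lists, so its name as BPs is less sure too. *Nasp* was at 406 and 225 CPM in these 2 GABAergic-like clusters. Differentiating subpallial-like cells, which were counted neither as APs nor as neurons, held 3768 CPM in septal explants and 4931 in the telencephalic vesicle. Cajal-Retzius-like neurons held 1042 and 1450 CPM.

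**Figure D2:**
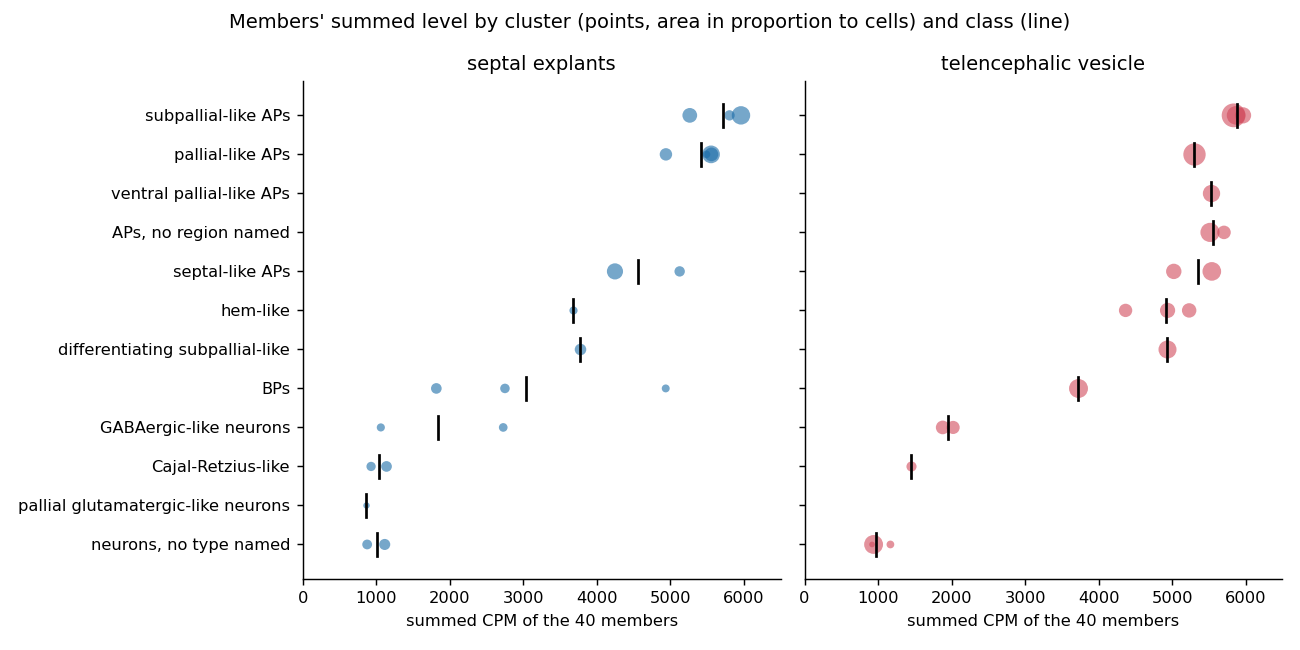
Summed CPM of the 40 genes (x axis) in each cluster (points, area in proportion to the number of cells) and over each class (black line) of the septal explants (left) and the telencephalic vesicle (right). AP classes lie between 3670 and 5880 CPM, the hem-like class of the telencephalic vesicle includes the cluster led by *Trpm3* and *Ttr* at 4367 CPM, neurons without a type name at 1006 and 969 CPM, and the 3 BP clusters of the septal explants spread from 1817 to 4937 CPM.

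Among regions, subpallial-like APs held the highest summed level in both libraries. In the septal explants, hem-like APs, whose name is less sure, held the lowest. In the septal explants the members summed to 5715 CPM in subpallial-like APs (1222 cells), 5424 in pallial-like APs (1311 cells), 4561 in septal-like APs (679 cells) and 3670 in hem-like APs (123 cells). In the telencephalic vesicle the levels were 5880 CPM in subpallial-like APs (2162 cells), 5526 in ventral pallial-like APs (552 cells), 5358 in septal-like APs (1076 cells), 5298 in pallial-like APs (919 cells) and 4910 in hem-like APs (1137 cells). Without the cluster led by *Trpm3* and *Ttr*, which held 4367 CPM, the hem-like APs of the telencephalic vesicle held 5054 CPM (5022 to 5086, 809 cells), and all its APs 5479 CPM, 3.97 times the neurons. The other hem-like clusters held 5231 and 4938 CPM, and the lower septal-like cluster 5022, so that clusters of these regions overlapped there. The hem-like cluster at 5231 CPM was led also by *Sfrp2*, a ventral pallial marker in the naming, so its name is less sure. A further 1012 APs of the telencephalic vesicle had no regional name and held 5551 CPM, with an interval that overlapped that of ventral pallial-like APs. The other neighbours in these orders were separated by their counting intervals, but clusters of a region differed too. Of the 2 septal-like clusters of the septal explants, the one led by *Fgf8* and *Fgf17* held 4247 CPM and the one led by *Fgf17*, *Rspo1* and *Wnt8b* 5127. *Rspo1* and *Wnt8b* were hem markers in the naming, so the septal-like name of the cluster at 5127 CPM is less sure. Both septal-like clusters lay below the subpallial-like clusters, which held 5961, 5805 and 5264 CPM. The pallial-like clusters of the septal explants held 5559, 5553, 5492 and 4940 CPM, and so overlapped with the clusters of both these regions. In the telencephalic vesicle, the pallial-like cluster at 5298 CPM lay between the septal-like clusters at 5539 and 5022 CPM. Subpallial-like APs were 1.25 times above septal-like APs in the septal explants (1.24 to 1.27) and 1.10 times in the telencephalic vesicle (1.09 to 1.10), and this direction held under each alternative run. Pallial-like APs were 1.19 times above septal-like APs in the septal explants and 0.989 times in the telencephalic vesicle, and this ratio changed direction with the processing in both libraries.

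Single genes moved with the sum in the septal explants. There, all 40 genes were higher in subpallial-like than in septal-like APs (43.4% of all genes tested), 35 with an interval above 1 (17.4% of all genes), and the median ratio was 1.26 where that of all genes was 0.968. Of the 40 genes, 32 were higher in the telencephalic vesicle (44.2% of all genes tested), 26 with an interval above 1 (21.8%), with a median of 1.08 where that of all genes was 0.976. The differences were small: 1 and 0 of the 40 genes reached 1.5-fold, against 3.43% and 5.8% of all genes tested. *Ccne2* was the gene that did, at 43.9 CPM in subpallial-like and 28.3 in septal-like APs of the septal explants (1.55, 1.36 to 1.78), while it was at 32.4 and 32.8 CPM in the telencephalic vesicle (0.988, 0.904 to 1.08). *Rrm2* was at 612 and 422 CPM in the septal explants (1.45, 1.4 to 1.5) and at 414 and 328 CPM in the telencephalic vesicle (1.26, 1.23 to 1.30). *Gins2* was at 128 and 99.2 CPM, and at 87.9 and 66.6 CPM, with ratios of 1.29 and 1.32. *Clspn*, at 150 and 107 CPM, had the highest ratio in the telencephalic vesicle (1.40, 1.33 to 1.46) and 1.28 in the septal explants. The G2 and mitosis genes had summed ratios of 1.03 and 1.07.

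Over single AP clusters, 10 in septal explants and 12 in the telencephalic vesicle, the highest cluster held a member at a median of 1.75 and 1.53 times its lowest. This ratio ran from 1.34 to 4.09 in the septal explants and from 1.2 to 2.32 in the telencephalic vesicle, where *Rfc2* was the most even gene and *Rrm2* the least. The value of *Rrm2* rests on the cluster led by *Trpm3* and *Ttr*, its lowest, and the range without that cluster is not given here. *Gins2*, at 2.21, was lowest in another hem-like cluster. The lowest cluster was the hem-like one for 34 of the 40 genes in the septal explants. In the telencephalic vesicle it was the cluster led by *Trpm3* and *Ttr* for 25 genes, and without that cluster a hem-like one for 12, with a median ratio of highest to lowest of 1.41. The highest cluster was subpallial-like for 25 and 21 genes. These counts of lowest and highest clusters were not made for all genes, so they do not set the members apart from other genes. *Brip1* had the ratio of 4.09, from 2.61 to 10.7 CPM, at few UMIs. *Rrm2* was at 313 CPM in hem-like and 646 CPM in the highest subpallial-like cluster of the septal explants.

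Neural cells were ordered by log2((N + 1)/(A + 1)), where N and A are the UMIs of 11 neuronal and 9 AP markers, and 10 bins with equal numbers of cells were made, from the AP side to the neuron side. The members varied little over the first bins and then fell. Bin 1 lay below the highest bin beyond counting error in both libraries. In the septal explants, their sum lay between 5082 and 5411 CPM in bins 1 to 6, and was 4810 CPM in bin 7, 2285 in bin 8, 1375 in bin 9 and 920 in bin 10. In the telencephalic vesicle, it lay between 5253 and 5514 CPM in bins 1 to 7, and was 4493 in bin 8, 2130 in bin 9 and 971 in bin 10. BP markers were highest in bin 8 of both libraries. Bin 8 of the septal explants held 1 AP, 220 BPs and 225 neurons among 518 cells. Bin 8 of the telencephalic vesicle held 234 APs, 287 BPs and 137 neurons among 979 cells. The other cells of bin 8 were differentiating subpallial-like. The bins are thus not the same step in both libraries. In bin 8 the members were at 42.2% and 81.5% of their highest bin, while the G2 and mitosis genes were at 58.6% and 94.4%. In bin 9 these values were 25.4% and 38.6% against 33.9% and 60.4%. At the neuron end, in bin 10, the lists were at 17.0% and 17.6% against 15.2% and 20%.

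The members did not fall at the same pace. In bin 8, 35 of 40 genes of the septal explants were at or under 50% of their highest bin, and 0 of 40 in the telencephalic vesicle, where 37 had reached that level in bin 9. The share of all genes at that level was not computed, so these counts do not set the members apart from other genes. *Ung* was at 15% of its highest bin in bin 8 of the septal explants, 17.8 CPM of 118, and at 53.5% in the telencephalic vesicle, 23.1 CPM of 43.3. *Rrm2* was at 56.9% in bin 8 of the septal explants, 349 CPM of 614, and had its highest bin there in the telencephalic vesicle, at 395 CPM. *Rrm1*, *Ubr7* and *Nasp* were at 67.2%, 63.0% and 58.5% in bin 8 of the septal explants. *Tyms*, the other nucleotide supply gene, was at 37.3% there and at 85.3% in the telencephalic vesicle. By bin 10, *Rrm2* was at 7.37% and 11%, *Dtl* at 3.69% and 4.14%, *Casp8ap2* at 44.4% and 32.2%, and *Nasp* at 34.3% and 30.0%. *Rrm2* was thus above most members in bin 8 and below *Casp8ap2* and *Nasp* in bin 10.

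**Figure D3:**
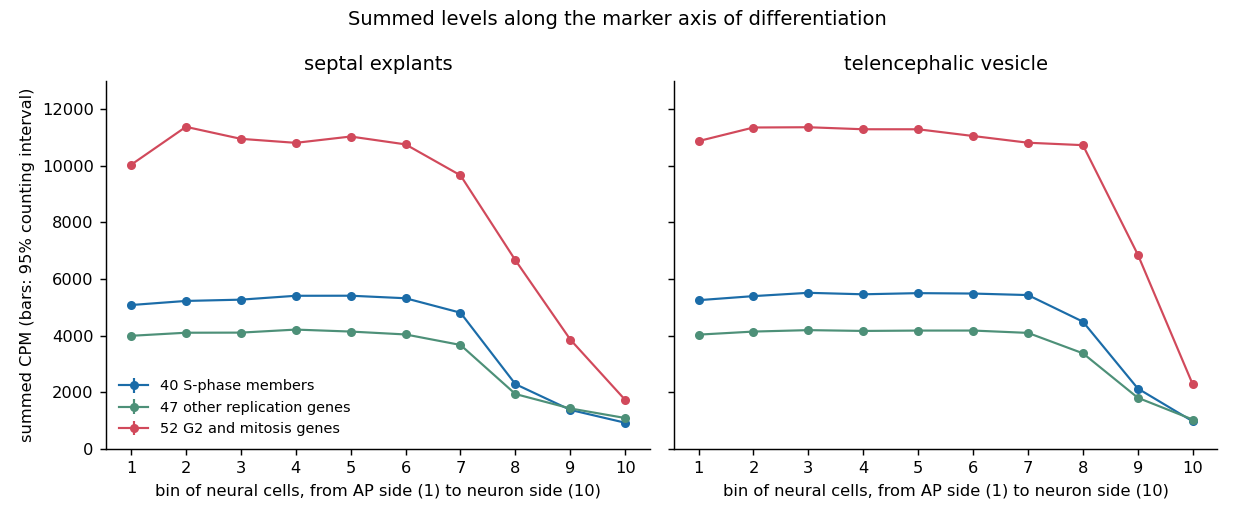
Summed CPM (y axis) of the 40 genes (blue), the 47 other replication genes (green) and the 52 G2 and mitosis genes (red) in 10 bins of neural cells ordered from the AP side to the neuron side (x axis), with 95% counting intervals as bars. In bin 8 the blue line is at 2285 CPM in the septal explants and 4493 CPM in the telencephalic vesicle, and it ends at 920 and 971 CPM in bin 10.

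To count cells rather than UMIs, cells were thinned to 8000 UMIs in septal explants and 3500 in the telencephalic vesicle, which left out 511 and 1145 shallower cells. A cell was placed in an S-phase range when its UMIs of the 40 genes lay above the 95th percentile of neurons, which was 23 and 14 UMIs. This is a range of a score and not a type of cell, and 293 of the 3153 APs of the septal explants and 1619 of the 6748 of the telencephalic vesicle lay within 2 UMIs of the limit. Of the septal explants, 82.8% of APs (exact Clopper-Pearson 95% interval 81.5 to 84.1%) and 29.7% of BPs (25.4 to 34.3%) were in the range. The telencephalic vesicle had 69.7% of APs (68.6 to 70.8%) and 28.7% of BPs (25.2 to 32.3%) in it. The share was 89.1% and 77.0% in subpallial-like, 86.4% and 70.3% in pallial-like, 69.6% and 68.3% in septal-like APs. It was 50.9% in hem-like APs of the septal explants, and 56.1% in those of the telencephalic vesicle with the cluster led by *Trpm3* and *Ttr* and 62.2% (58.8 to 65.6%) without it. Of the neuron classes, GABAergic-like neurons had 17.1% and 8.67%, and Cajal-Retzius-like neurons 0.850% and 4.28%. GABAergic-like neurons made up 38 of the 48 neurons in the range in the septal explants, and 56 of 72 in the telencephalic vesicle. The limit thus rests much on this class, and it was not set without it. The share of APs depends on the limit: with the 90th percentile of neurons it was 93% and 90.8%, and with the 99th 42.0% and 17.2%.

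**Figure D4:**
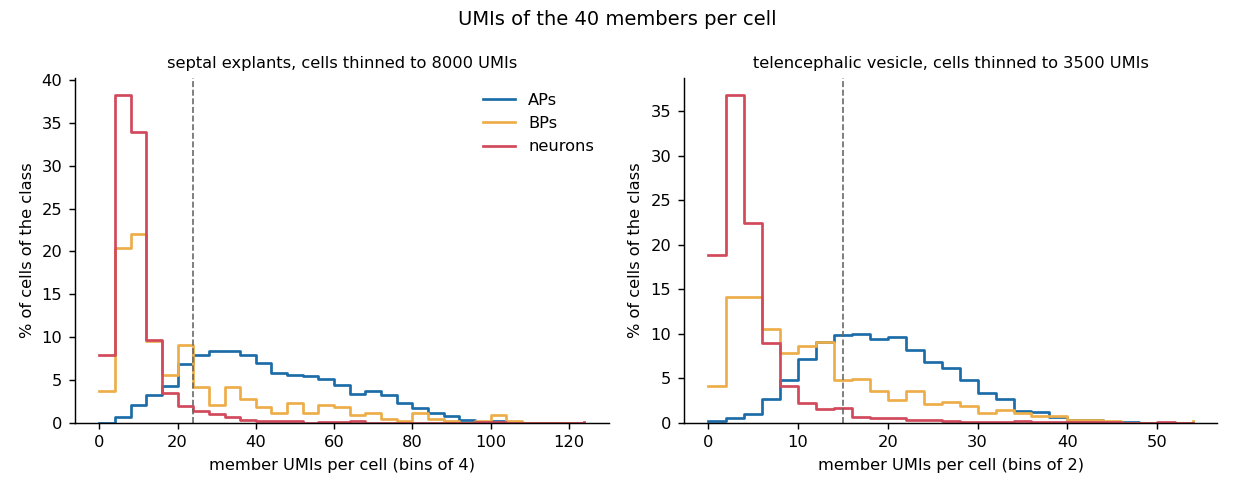
Percent of cells (y axis) by their UMIs of the 40 genes (x axis) in APs (blue), BPs (yellow) and neurons (red) of the septal explants (left, cells thinned to 8000 UMIs) and the telencephalic vesicle (right, 3500 UMIs). APs have medians of 40 and 19 UMIs, BPs of 12 and 9 and neurons of 8 and 3, and the dashed line marks the upper limit of 23 and 14 UMIs beyond which a cell is in the S-phase range.

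Within APs, each gene was read in 4 equal groups of cells ranked by their share of UMIs of the other 39 genes, so that a gene did not rank itself. The level of all 40 genes rose over each of the 4 groups in both libraries, while the share of non-members that did so was not computed. From the lowest to the highest group, 36 members of the septal explants (3.1% of non-members) and 27 of the telencephalic vesicle (2.23%) rose at least 2-fold, with medians of 3.56 and 2.42 where the non-members had 0.960 and 0.984. *Ccne2* had the highest ratio, from 3.84 to 86.5 CPM in the septal explants (22.5) and from 7.97 to 64.9 CPM in the telencephalic vesicle (8.15). *Cdc6* went from 3.34 to 73.0 CPM (21.9) and from 9.28 to 63.7 CPM (6.87). *Usp1* went from 143 to 237 CPM (1.65) and from 155 to 229 CPM (1.47), and *Nasp* had ratios of 1.80 and 1.48. Of the 47 other replication genes, 33 and 21 were at least 2-fold higher in the highest group, and 30 and 28 of the 52 G2 and mitosis genes were at least 2-fold lower there. Among all non-members tested, 442 of 11100 in the septal explants and 508 of 13616 in the telencephalic vesicle were at least 2-fold lower.

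APs were also divided at the median of the other 39 genes and at the median of the G2 and mitosis genes into 4 ranges. Every member had a higher level in cells high for the other members and low for G2 and mitosis genes than in cells of the opposite range, with an interval above 1 for 40 of 40 in both libraries, against 20.9% and 23% of non-members tested. The size of this ratio separated the genes, and its order was alike in the libraries (Spearman's rho 0.933 across the 40 genes, which share cells and depth). It was at least 2 for 22 and 11 of them, against 2.01% and 0.816% of non-members, with medians of 2.17 and 1.68 where the non-members had 0.973 and 0.992. *Ccne2* was at 73.8 CPM in the first range and 6.68 in the opposite one in the septal explants (11.1, 9.22 to 13.3), and at 53.0 and 13.3 CPM in the telencephalic vesicle (3.99, 3.65 to 4.35). *Cdc6* had ratios of 11 (9.16 to 13.4) and 3.33 (3.08 to 3.61), and *Ung* of 10.4 (9.41 to 11.4) and 3.98 (3.70 to 4.29). These genes act at the entry into S-phase or in base repair. *Usp1* had the lowest ratio in both libraries, 1.17 (1.12 to 1.23) and 1.15 (1.12 to 1.19), and other low ratios were those of *Blm*, 1.21 and 1.23, *Rrm1*, 1.29 and 1.16, and *Nasp*, 1.39 and 1.2.

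Cells low for both lists separated the genes in another way. *Ung* was at 106 CPM in APs low for both lists and 24.4 CPM in APs low for the members and high for G2 and mitosis genes of the septal explants, and at 45.4 and 18.4 CPM in the telencephalic vesicle. *Pcna* went the same way, with 89.5 and 69.6 CPM, and 270 and 213 CPM. *Rrm2* went the other way, with 188 and 397 CPM in the septal explants and 247 and 289 CPM in the telencephalic vesicle, as did *Usp1*, with 116 and 186 CPM, and 146 and 184 CPM. In all, 14 and 22 of the 40 genes were higher in the cells low for both lists, against 49% and 49.2% of non-members tested, so that the members' share was below that of non-members in the septal explants and close to it in the telencephalic vesicle. The cells low for both lists were shallower: in the division made for *Ung*, they had a median of 10366 UMIs in the septal explants, where the cells low for the members and high for G2 and mitosis genes had 16493. The part of depth in these values was not tested.

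**Figure D5:**
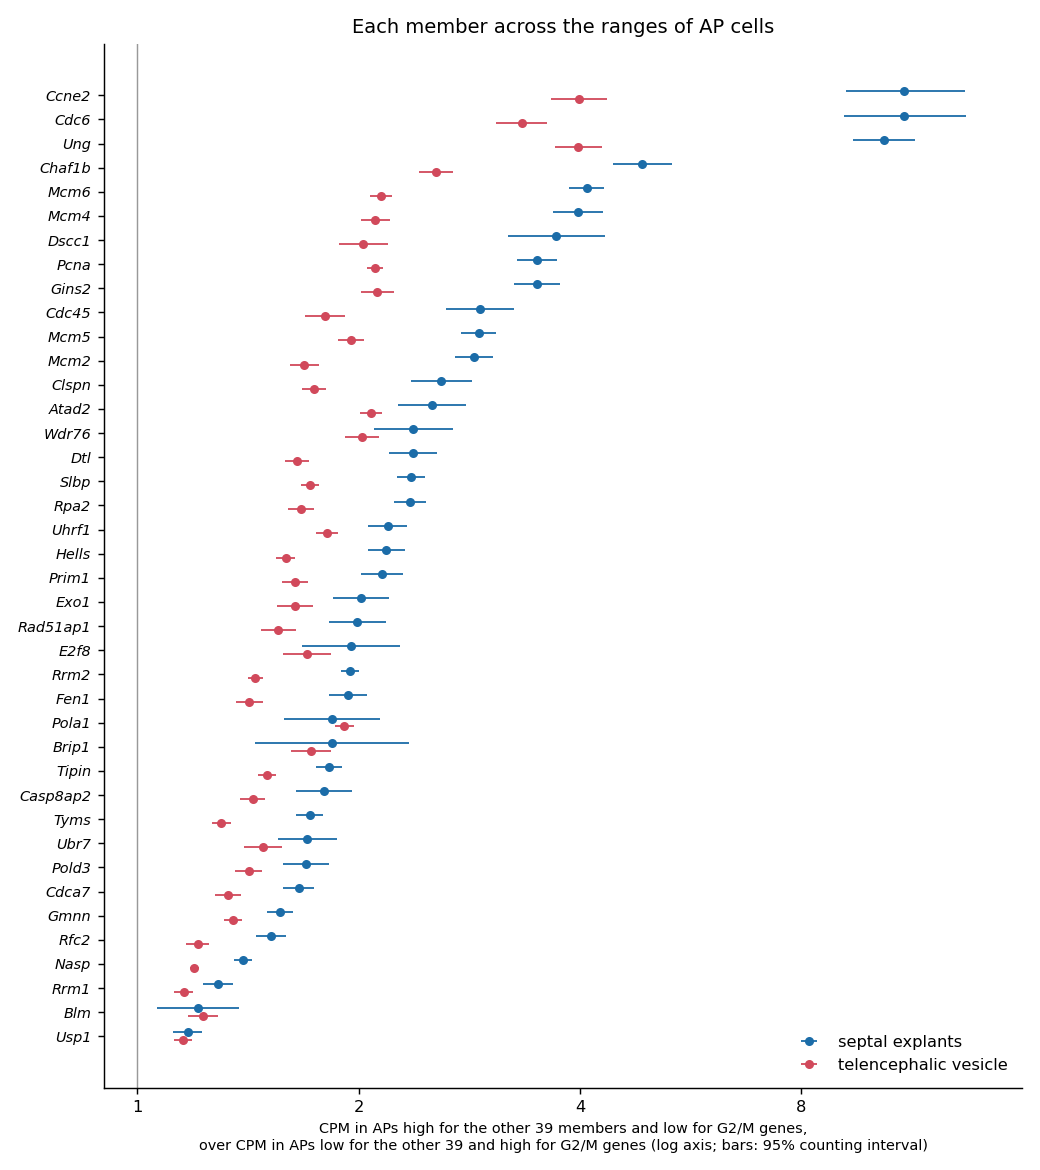
Ratio (log axis) of CPM in APs high for the other 39 members and low for G2 and mitosis genes to CPM in APs of the opposite range, for each of the 40 genes, in the septal explants (blue) and the telencephalic vesicle (red), with 95% counting intervals as bars. Genes run from *Ccne2*, at 11.1 and 3.99, to *Usp1*, at 1.17 and 1.15, and all bars lie right of 1.

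In the septal explants, the reporters told the pools apart in part. Cells with at least 3 YFP UMIs were taken as the E11.5 pool. Cells with at least 1 tdTomato UMI and no YFP UMI were taken as E12.5 cells of the Dbx1 lineage, so that age and lineage cannot be told apart. The part of free RNA in single tdTomato UMIs was not tested. The paper describes *Dbx1* in progenitors of the ventral pallium and the septum. The tdTomato cells without YFP were not limited to septal-like APs, which held 37 of them beside 422 E11.5 cells. Subpallial-like APs held 56 beside 734, and 56 beside 697 were found among the pallial-like. Whether all these tdTomato cells are E12.5 cells of the Dbx1 lineage was not tested. The members summed to 5390 CPM in 1955 E11.5 APs and to 4942 CPM in 150 E12.5 APs, a ratio of 0.917 (0.9 to 0.934), while the G2 and mitosis genes had a ratio of 0.991 (0.978 to 1). Of the 40 genes, 31 were lower in the E12.5 APs (52% of all genes tested), 15 with an interval below 1 (5.17%) and 0 with one above it, and the median over all genes was 0.992. The median depth was 14990 UMIs in the E11.5 and 13630 in the E12.5 APs, and its part was not tested. The level of the E12.5 cells was also lower within regions. It was 4645 against 3754 CPM in septal-like APs (422 and 37 cells, ratio 0.808, 0.772 to 0.846), 0.927 in subpallial-like APs and 0.924 in pallial-like APs. BPs had 3406 and 2051 CPM (250 and 37 cells, ratio 0.602, 0.562 to 0.644), and their G2 and mitosis genes had a ratio of 0.755. The BPs were not matched by cluster here, and the BP clusters ran from 1817 to 4937 CPM. Neurons had a ratio of 0.691 (0.642 to 0.742), with 0.604 for G2 and mitosis genes. The neurons were not matched by type, and GABAergic-like neurons held 1845 CPM where Cajal-Retzius-like neurons held 1042. Among the APs, 24 held UMIs of both reporters, and any of these with at least 3 YFP UMIs were counted in the E11.5 pool. Cells with some YFP UMIs but fewer than 3 were in neither pool. The 863 APs with neither reporter, whose age is not known, held the members at 5156 CPM (5116 to 5195).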

How the data were processed

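Both libraries were 10x Genomics 3′ single-cell libraries of mouse embryonic telencephalon, 1 of septal explants and 1 of telencephalic vesicles. The authors deposited raw UMI counts per gene and cell barcode, made with Cell Ranger 2.1.1 for the septal explants and Cell Ranger 7.1.0 for the telencephalic vesicle, and the submitters' processing notes name mm10. The septal reference also held YFP and tdTomato. Whether introns were counted is not given in the sources used here, and it could change levels between libraries, so each library was read on its own.

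From these counts, barcodes within 3 median absolute deviations of the median mitochondrial share were kept (5444 of 5827 and 12471 of 14283), and Scrublet, run through scanpy 1.11.5, removed 60 (1.10%) and 713 (5.72%) of them as doublets. With another seed Scrublet marked very few septal cells, so doublet removal in that library depends on the seed. Counts were scaled to 10000 per cell and logged for clustering on 2000 variable genes, 30 principal components and 15 neighbours, with Leiden resolution 1.5. Genes correlated with S-phase or G2 and mitosis sums (absolute r of at least 0.1, 2629 and 2627 genes) were left out of the clustering. This step and parts of the naming rule were set after seeing the data, since clusters had otherwise divided by phase. Clusters were named from at least 3 markers, and 1 and 2 clusters stayed unnamed (132 and 969 cells).

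UMIs were summed over cells of a class and divided by all their UMIs (CPM). With 1 library per tissue there was no test and no p-value, a gene was called by fold alone (2-fold, or 1.5-fold between regions), and genes needed 50 UMIs in the cells compared. Values were computed with Python 3.11.15, numpy 2.4.6, scipy 1.17.1 and pandas 2.3.3. The fold call and the interval of a ratio were tested on simulated summed counts without variation between cells. Clustering, naming and the divisions of cells were not tested in this way. The 40 genes and the lists beside them were chosen with earlier results of these data known. Genes named with full values were the 5 with most UMIs in APs, the 5 highest and 5 lowest ratios of APs to neurons and 1 to 3 of each role, and other genes were named after their values were seen. Overlapping genes on the other strand were annotated for 14 of the 40, and on the same strand for 6. Alternatives covered the cells kept, the clustering, depth, the total and the thresholds. The levels of some marker genes are not reported here.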

Additional observations from a re-analysis of the deposited data

Results flagged for a closer look

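For several genes, a ratio between AP regions lay above 1 in one library and below 1 in the other, with both counting intervals on opposite sides of 1. With 1 library per tissue, the difference between libraries was not tested. *Cdca7* was 1.26 times higher (1.18 to 1.34) in subpallial-like than in septal-like APs of the septal explants and 0.947 (0.901 to 0.996) in the telencephalic vesicle. Between pallial-like and septal-like APs, the ratios in the septal explants and the telencephalic vesicle were 1.15 and 0.902 for *Rrm1*, 1.15 and 0.907 for *Dtl*, 1.12 and 0.952 for *Nasp*, and 1.11 and 0.906 for *Slbp*. They were 1.31 and 0.935 for *Rrm2*, and 1.38 (1.19 to 1.60) and 0.848 (0.771 to 0.932) for *Cdc6*. Between subpallial-like and pallial-like APs they were 1.08 and 0.866 for *Ung*, and 0.850 and 1.15 for *Cdc45*.

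The members were also found in cells that the comparisons did not use. Their summed level was 1838 CPM in 26 erythroid-like cells and 2260 CPM in 44 mesenchyme-like cells of the septal explants, the latter led also by the macrophage gene *Pf4*. In the telencephalic vesicle it was 2035 CPM in 403 erythroid-like, 3520 CPM in 483 mesenchyme-like, 2961 CPM in 37 endothelial-like and 3663 CPM in 72 macrophage-like cells. All of these lay above the neurons of the same library. The unnamed clusters held 3911 CPM in the septal explants and 4015 CPM in the telencephalic vesicle. Their barcodes were shallow, with a median of 5180.5 UMIs in the septal explants, against 12868.5 over all kept cells. In the telencephalic vesicle the medians were 1113.5 and 1002 UMIs, against 9058.5, so these may not be whole cells.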

How the results depend on the processing

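Values are given for the septal explants first and the telencephalic vesicle second, and where 1 library is named the other moved by less than its counting interval, except for the setting without the cluster led by *Trpm3* and *Ttr*, which the septal explants did not hold. Over all settings run, the ratio of APs to neurons lay between 3.89 and 5.25 in the septal explants and between 2.36 and 5.17 in the telencephalic vesicle, that of BPs to APs between 0.490 and 0.771 and between 0.607 and 0.862, and that of subpallial-like to septal-like APs between 1.19 and 1.34 and between 1.06 and 1.16, so that these kept their direction. The ratio of pallial-like to septal-like APs changed direction in the septal explants under 1 setting and in the telencephalic vesicle under 7, and the cause was not tested. Members at least 2-fold higher in APs than in neurons numbered 38 to 40 and 36 to 40. With all deposited barcodes, the ratio of APs to neurons was 3.97 and 2.44, that of BPs to APs 0.668 and 0.729, that of pallial-like to septal-like APs 1.005 in the telencephalic vesicle, that of subpallial-like to septal-like APs 1.24 and 1.09, that of subpallial-like to pallial-like APs 1.04 and 1.08 and the share of APs in the S-phase range (in percent) 74.6 and 48.9. With doublets kept, the ratio of APs to neurons was 3.89 and 2.36, that of pallial-like to septal-like APs 1.27 and 1.02, that of subpallial-like to septal-like APs 1.34 and 1.06, that of subpallial-like to pallial-like APs 1.05 in the telencephalic vesicle and the share of APs in the S-phase range (in percent) 72.9 and 43.7. At a Leiden resolution of 0.8, the ratio of APs to neurons was 4.58 and 3.86, that of BPs to APs 0.639 and 0.663, that of pallial-like to septal-like APs 1.21 and 1.001, that of subpallial-like to septal-like APs 1.31 and 1.11, that of subpallial-like to pallial-like APs 1.08 in the septal explants and the share of APs in the S-phase range (in percent) 86.9 in the septal explants. At a resolution of 2.5, the ratio of APs to neurons was 3.45 in the telencephalic vesicle, that of BPs to APs 0.653 and 0.853, that of pallial-like to septal-like APs 1.17 and 1.01, that of subpallial-like to septal-like APs 1.31 and 1.09, that of subpallial-like to pallial-like APs 1.12 and 1.08 and the share of APs in the S-phase range (in percent) 86.3 and 64.6. With another random seed, the ratio of APs to neurons was 4.08 and 3.39, that of BPs to APs 0.654 and 0.862, that of pallial-like to septal-like APs 1.23 and 1.04, that of subpallial-like to septal-like APs 1.32 and 1.12, that of subpallial-like to pallial-like APs 1.07 and 1.07 and the share of APs in the S-phase range (in percent) 76.3 and 60.2. With cell cycle genes and members kept in the clustering, the ratio of APs to neurons was 4.98 in the septal explants, that of BPs to APs 0.548 and 0.762, that of pallial-like to septal-like APs 1.15 and 0.98, that of subpallial-like to septal-like APs 1.06 in the telencephalic vesicle, that of subpallial-like to pallial-like APs 1.09 and 1.08 and the share of APs in the S-phase range (in percent) 91.2 and 79.5. With cells of at least 1000 genes, the ratio of APs to neurons was 3.53 in the telencephalic vesicle, that of BPs to APs 0.561 in the septal explants, that of pallial-like to septal-like APs 1.14 in the septal explants, that of subpallial-like to septal-like APs 1.21 and 1.06 and that of subpallial-like to pallial-like APs 1.07 in the telencephalic vesicle. With only the listed cell cycle genes and members left out of the clustering, the ratio of APs to neurons was 4.89 and 3.55, that of BPs to APs 0.771 and 0.698, that of pallial-like to septal-like APs 0.896 in the septal explants, that of subpallial-like to septal-like APs 1.19 and 1.07, that of subpallial-like to pallial-like APs 1.33 and 1.08 and the share of APs in the S-phase range (in percent) 90.9 and 64.7. After thinning to one depth, the ratio of APs to neurons was 4.27 in the telencephalic vesicle, that of BPs to APs 0.513 and 0.611, that of pallial-like to septal-like APs 1.04 in the telencephalic vesicle and that of subpallial-like to septal-like APs 1.16 in the telencephalic vesicle. With means over cells, the ratio of APs to neurons was 4.29 in the telencephalic vesicle, that of BPs to APs 0.49 and 0.607, that of pallial-like to septal-like APs 1.24 and 1.03, that of subpallial-like to septal-like APs 1.29 and 1.14 and that of subpallial-like to pallial-like APs 1.04 in the septal explants. Without mitochondrial and ribosomal protein genes in the total, the ratio of APs to neurons was 4.89 and 4.14, that of BPs to APs 0.558 and 0.67, that of pallial-like to septal-like APs 0.9997 in the telencephalic vesicle, that of subpallial-like to septal-like APs 1.24 and 1.09 and that of subpallial-like to pallial-like APs 1.09 in the telencephalic vesicle. Without the 5 members with most UMIs, the ratio of APs to neurons was 4.97 and 4.51, that of BPs to APs 0.502 and 0.621, that of pallial-like to septal-like APs 0.9977 in the telencephalic vesicle, that of subpallial-like to septal-like APs 1.08 in the telencephalic vesicle, that of subpallial-like to pallial-like APs 1.04 and 1.08 and the share of APs in the S-phase range (in percent) 85.8 and 72.5. With the 90th percentile of neurons as the limit, the share of APs in the S-phase range (in percent) was 93 and 90.8. With the 99th percentile, the share of APs in the S-phase range (in percent) was 42 and 17.2. In whole cells without thinning, the share of APs in the S-phase range (in percent) was 74.2 in the telencephalic vesicle. Without GABAergic-like neurons, the ratio of APs to neurons was 5.25 and 5.17. Without hem-like clusters among the APs, the ratio of APs to neurons was 4.03 in the telencephalic vesicle and that of BPs to APs 0.67 in the telencephalic vesicle. Without the cluster led by *Trpm3* and *Ttr*, the share of APs in the S-phase range (in percent) was 71.1 in the telencephalic vesicle. A further 59 values moved less than their counting interval or, for counts, less than 1.5 times. The ratio of subpallial-like to septal-like APs, the clustering with only the listed genes left out, and the settings without GABAergic-like neurons, hem-like clusters or the cluster led by *Trpm3* and *Ttr* were chosen after seeing the data. No paired analysis was possible because there is 1 library per tissue and embryos were pooled. Depth limits the genes with fewest UMIs, such as *Brip1*, with 421 UMIs in APs of the septal explants, and intervals cover counting error only.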
